A study of Homo sapiens with 24 samples.

Results

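The human mitochondrial genome carries 37 genes, and all 37 were present among the 60605 genes of this PRO-seq count table. They were taken as every gene whose symbol starts with MT- and that lies on chromosome M, so that no measured value chose them. The set holds 13 protein-coding genes, 22 tRNA genes and 2 rRNA genes. PRO-seq (precision run-on sequencing) maps RNA that polymerases were extending when permeabilised cells were given labelled nucleotides, so its counts report ongoing transcription more than stored RNA. The part of stored RNA in the mitochondrial counts was not tested. The cells were T47D, an estrogen receptor-positive luminal breast cancer line, in 3 engineered lines named Clone 28, Clone 35 and Clone 39. Each line is a single clone in which the endogenous TRPS1 gene, which encodes a repressive GATA-family factor, carries an FKBP degron tag. In each clone some TRPS1 copies were knocked out and only the tagged protein was made, a state that the controls share. Cells received 0.1% DMSO or 100 nM dTAG-13, which leads to degradation of the tagged protein, for 90 minutes. Each of the 6 groups of clone and treatment had 4 libraries with replicate numbers 1 to 4, 24 in all, and the dishes of different replicates were treated and collected at different times of 1 day. The labels give no order of the numbers within the day. They also do not say whether a number marks the same time in all 3 clones, or whether dishes came from separate passages. The p-values therefore measure only the spread between these samples, which may be technical.

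Mitochondrial DNA is transcribed inside the organelle by POLRMT, a polymerase of its own that is unrelated to the nuclear polymerases, from start sites in the noncoding control region. Each strand is read as a long transcript that spans many genes, and the tRNAs that lie between the other genes are then cut out, which releases the rRNAs and mRNAs. The proteins are subunits of respiratory complexes I, III, IV and V, and the rRNAs and tRNAs serve mitochondrial translation. By the annotated strand, 28 genes belong to the heavy-strand transcript (both rRNAs, 12 mRNAs and 14 tRNAs) and 9 to the light-strand transcript (MT-ND6, which encodes a complex I subunit, and 8 tRNAs).

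Fragments of mitochondrial DNA were copied into nuclear chromosomes in the past, and reads from a shared stretch cannot be assigned to either copy with certainty. The tRNA genes in the next lines are shown because they stand at the ends of the results that follow. MT-TF had the largest difference between replicate numbers, MT-TL1 the highest read density, MT-TD the lowest density, and MT-TV and MT-TT the extremes of nuclear identity. Capitals mark bases inside a 30-base window, which may run past the end of the gene, that also occurs identically in a nuclear chromosome of hg38, on either strand.
MT-TF, tRNA for phenylalanine, chrM:577-647, plus strand: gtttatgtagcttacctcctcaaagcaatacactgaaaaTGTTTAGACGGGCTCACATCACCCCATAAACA
MT-TV, tRNA for valine, chrM:1602-1670, plus strand: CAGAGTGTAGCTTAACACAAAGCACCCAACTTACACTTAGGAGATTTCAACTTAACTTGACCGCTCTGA
MT-TL1, tRNA for leucine, chrM:3230-3304, plus strand: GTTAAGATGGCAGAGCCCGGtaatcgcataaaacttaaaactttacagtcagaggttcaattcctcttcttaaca
MT-TD, tRNA for aspartate, chrM:7518-7585, plus strand: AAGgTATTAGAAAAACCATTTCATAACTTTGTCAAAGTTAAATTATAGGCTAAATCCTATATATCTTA
MT-TT, tRNA for threonine, chrM:15888-15953, plus strand: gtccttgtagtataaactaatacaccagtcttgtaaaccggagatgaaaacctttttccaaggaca

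Every 30-base window within MT-TV, MT-TQ, MT-TW, MT-TA, MT-TN, MT-TS1, MT-TK and MT-TE had a nuclear match, and none within MT-TL1 or MT-TT did. Among longer genes the share was 71.1% for MT-CO1, 65.1% for MT-RNR1, 38.1% for MT-RNR2, 34.3% for MT-ND6 and 7.73% for MT-CYB. The table also counted 404 annotated nuclear copies, whose counts came to 3.4% to 4.58% of the mitochondrial counts in the same library. The copies with the largest totals were MTCO1P12, MTND2P28, MTATP6P1, MTCO2P12 and MTCO3P12 on chromosome 1 and MTND6P3 on chromosome 5. The split of reads between such copies and the mitochondrial genes is uncertain.

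Neighbouring mitochondrial genes overlap at 5 places, and where both genes lie on the same strand a read over the shared bases can be counted in both. The longest overlap joins the mRNAs of ATP synthase subunits MT-ATP8 and MT-ATP6, which share 46 bases, and the next joins the complex I subunit mRNAs MT-ND4L and MT-ND4, which share 7. These junctions are shown, with 12 bases on each side, because the counts of such pairs are not independent. Capitals here mark the bases that belong to both genes.
MT-ATP8 and MT-ATP6, chrM:8515-8584, plus strand: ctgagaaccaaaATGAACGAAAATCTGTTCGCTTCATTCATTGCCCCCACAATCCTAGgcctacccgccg
MT-ND4L and MT-ND4, chrM:10748-10778, plus strand: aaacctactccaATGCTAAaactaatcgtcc

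The other overlaps were 3 bases between MT-TI and MT-TQ on opposite strands, 1 base between MT-TC and MT-TY and 1 base between MT-ATP6 and MT-CO3. The counts behaved as strand-specific ones in the nuclear genome. A gene lying inside another on the same strand had a median read density 0.88 times that of its host (203 genes), and one on the opposite strand 0.0268 times (453 genes).

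Library totals ranged from 3226718 to 9575803 counts, with a median of 5042122. The luminal markers GATA3 and ESR1 had medians of 802 and 1598 CPM (counts scaled to equal library sizes), and the basal keratin KRT5 had a median of 0. The 8 markers of basal, mesenchymal, blood and endothelial cells together made up at most 0.00319% of a library with replicate number 1 and at most 0.00309% with number 4. TRPS1 itself is degraded as protein, so its gene's counts do not check the treatment labels.

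Mitochondrial genes took between 1.04% and 2.59% of a library's counts, with a median of 1.59% over the 24 libraries. In DMSO, Clone 28 had shares of 1.96, 1.57, 1.38 and 1.32% for numbers 1 to 4, Clone 35 had 2.09, 1.86, 1.44 and 1.23%, and Clone 39 had 2.02, 1.82, 1.85 and 1.6%. Number 4 was the lowest library of every one of these groups and number 1 the highest. In dTAG-13, Clone 28 had 1.55, 1.54, 1.28 and 1.04%, Clone 35 had 1.78, 2.59, 1.58 and 1.24%, and Clone 39 had 2.09, 1.98, 2.3 and 1.46%. Number 4 was again the lowest in each group, while the highest was number 1, 2 and 3 in Clones 28, 35 and 39. The highest share of all, 2.59%, came from the number 2 library of Clone 35 in dTAG-13. The 95% Wilson intervals reached 0.00791 to 0.0164 percentage points to either side, so the spread between libraries was far wider than counting error, which is all that these intervals cover. In bulk libraries, fewer cells of a type and less RNA per cell cannot be told apart. Shares and CPM are relative to each library, so less mitochondrial and more nuclear signal cannot be told apart either.

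**Figure D1:**
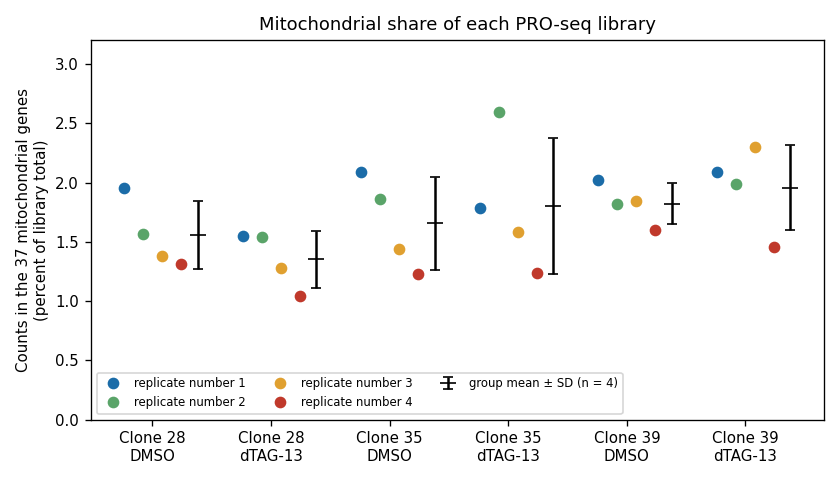
Percent of each library's counts that fell in the 37 mitochondrial genes, by group on the x axis and coloured by replicate number, with the group mean and SD (n = 4) in black. Number 4 is the lowest point of each of the 6 groups, with values from 1.04% to 1.6%.

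By replicate number, the share averaged 1.91% ± 0.212 for number 1, 1.9% ± 0.383 for number 2, 1.64% ± 0.379 for number 3 and 1.31% ± 0.196 for number 4 (SD, n = 6 libraries of 3 clones and 2 treatments each). Number 4 lay below number 1 in 6 of 6 groups, with a mean log2 ratio of -0.55. The ranges of number 1 (1.55% to 2.09%) and number 4 (1.04% to 1.6%) still touched, since the highest number 4 library, from Clone 39, exceeded the lowest number 1 library, from Clone 28.

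The rRNA genes dominated the mitochondrial counts. MT-RNR2 and MT-RNR1, the large and small rRNA of the mitochondrial ribosome, ranked 3 and 5 among all genes of the table by summed count, and together they held 41.2% to 48.5% of the mitochondrial counts of a library. The 12 heavy-strand mRNAs held 26.7% to 38.2%, the 14 heavy-strand tRNAs 11.3% to 23.4%, the 8 light-strand tRNAs 2.65% to 3.95% and MT-ND6 1.87% to 3.45%. All light-strand genes together came to 4.63% to 7.07%, and the heavy-strand total was 16.2 ± 1.98 times the light-strand total (SD, n = 24). This ratio compares counts over 28 and 9 annotated genes with no correction for length, so it does not compare transcription of the strands. Per kilobase, MT-ND6 had a median CPM of 829, above each heavy-strand mRNA (328 to 784).

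Per length, on the scale of CPM per kilobase of annotated gene, density fell after MT-TL1. The genes from MT-TF through MT-RNR1, MT-TV and MT-RNR2 to MT-TL1, which lie next to each other at the start of the heavy-strand transcript, had median densities of 2946, 3554, 5118, 2558 and 21444. MT-ND1, the next gene and a complex I subunit, had 633. This block of 5 genes held 51.4% to 64.8% of the mitochondrial counts. MT-TL1 was the densest gene and exceeded MT-ND1 by 36.9 ± 16.4 times (SD, n = 24, from 18.3 to 78.6). Its sequence holds the binding site of the termination factor MTERF1, but the part of termination in these densities was not tested.

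Beyond this block the remaining heavy-strand mRNAs lay between 328 for MT-ATP6 and 784 for MT-ND3, and MT-CYB, the cytochrome b subunit of complex III at the far end, had 543. The lowest densities were those of the tRNAs MT-TD (24.2, with 0.257 to 3.81 CPM per library) and MT-TK (73.3), and 89.7% and 100.0% of their 30-base windows matched the nucleus. MT-TV, also at 100.0%, ranked 2 by density, and the part of nuclear identity in the densities was not tested. On the light strand, MT-TP (tRNA for proline) had the highest density, 2641, followed by MT-TE (tRNA for glutamate) with 1390, and these are the light-strand genes nearest to the control region, with MT-ND6 (829) next. The other light-strand tRNAs lay between 384 for MT-TN and 953 for MT-TC.

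**Figure D2:**
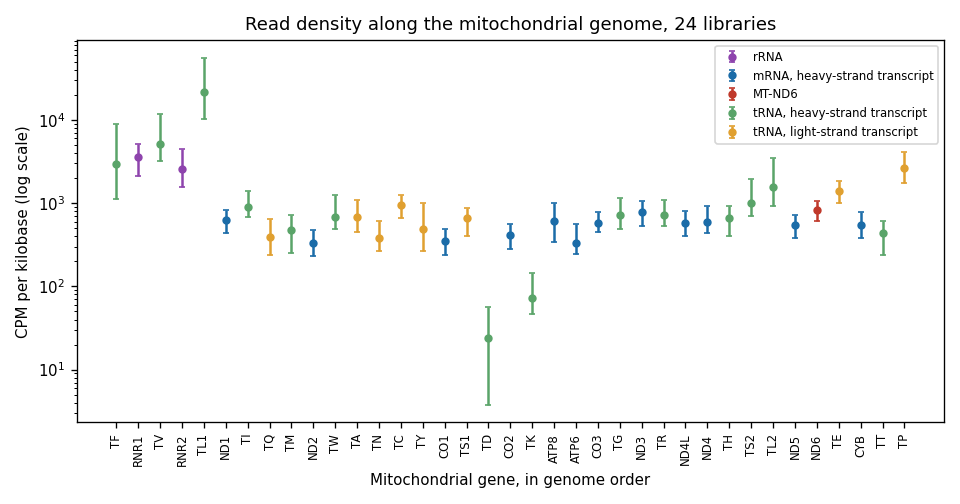
Median CPM per kilobase (log scale) of each of the 37 genes in genome order, with bars from the lowest to the highest of the 24 libraries and colours for class and strand. Density drops from 21444 at MT-TL1 to 633 at MT-ND1, and MT-TD and MT-TK are the lowest.

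More mitochondrial genes were called for the replicate number than for clone or treatment. These counts come from tests that differ in model and in libraries compared, so they do not rank the sizes of the differences. In a model of the 6 groups plus the number, 30 of 37 mitochondrial genes (81.1%) differed between numbers at an adjusted p under 0.1 (edgeR quasi-likelihood test with Benjamini-Hochberg adjustment over 22326 genes), against 37.2% of all genes tested. The genes that did not pass were MT-TV, MT-TL1, MT-TQ, MT-TW, MT-TA, MT-TD and MT-ATP6. With number 1 as the reference, 32 of 37 fell in number 4 and none rose, where 15.6% of all genes fell and 16.3% rose. In number 3, 16 of 37 fell and none rose, where 29.9% of all genes were called, 14.6% lower and 15.3% higher. That count was 10 without Clone 28 (18.5% of all genes called) and 4 of 36 in the dTAG-13 libraries alone (13.4%). In number 2 no mitochondrial gene passed, against 7.09% of all genes (3.57% higher and 3.52% lower), and 2 had an unadjusted p under 0.05, while DESeq2 also called 0. The 24 libraries enter each of these contrasts, and the 3 contrasts share the number 1 libraries.

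The median log2 fold change of the 37 genes in number 4 was -0.52, against -0.00465 for all genes tested. All 37 values were negative, from -2.20 to -0.18. The genes lie on shared long transcripts, so these values are not 37 separate observations. In 14 of 37 genes every number 4 library lay below every number 1 library, an ordering found in 2.08% of all genes, and in none did every number 4 library lie above, against 2.79%. By class, the median was -0.68 for the 14 heavy-strand tRNAs (11 called), -0.63 for the 2 rRNAs (2 called), -0.43 for the 8 light-strand tRNAs (7 called) and -0.41 for the 12 heavy-strand mRNAs (11 called).

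MT-TF, the first gene of the heavy-strand transcript and the tRNA whose sequence opens the lines above, changed most, and was picked out after its values were seen. In DMSO its CPM for numbers 1 to 4 was 362, 287, 109.5 and 78.8 in Clone 28, 481, 442, 112 and 142 in Clone 35 and 632, 278, 134 and 122 in Clone 39. In dTAG-13 it was 445, 249, 103 and 82.2 in Clone 28, 554, 539, 156 and 82.9 in Clone 35 and 361, 308, 169 and 110.0 in Clone 39. Every library of numbers 3 and 4 was below every library of numbers 1 and 2. The log2 fold change against number 1 was -0.45 ± 0.17 (SE) in number 2, -1.86 ± 0.18 in number 3 and -2.20 ± 0.18 in number 4, with adjusted p-values of 0.185, 1.97e-06 and 2.35e-07 by edgeR. MT-RNR1, its direct neighbour, fell by 0.59 on the log2 scale in number 4, so that the density of MT-TF relative to MT-RNR1 went from 1.61 ± 0.39 in number 1 to 0.519 ± 0.137 in number 4 (SD, n = 6).

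The CPM of MT-RNR1 in DMSO, for numbers 1 to 4, was 4246, 3290.3, 2635 and 2466 in Clone 28, 4479, 4214, 2901 and 2434 in Clone 35 and 4494, 3992, 4001 and 3249.6 in Clone 39. In dTAG-13 it was 3332, 3067, 2279 and 2033 in Clone 28, 3506, 4779.9, 3306 and 2608 in Clone 35 and 3936, 3990.4, 4889 and 3450.3 in Clone 39. Number 4 was the lowest library in each of the 6 groups. MT-RNR2 in DMSO had CPM values of 5382, 4074, 3173 and 2984 in Clone 28, 5170.2, 4549, 3086 and 2807 in Clone 35 and 5585, 4884, 4090.5 and 3902 in Clone 39. In dTAG-13 these were 3589, 3675, 3110.4 and 2409.9 in Clone 28, 4395, 7036, 3668 and 3005 in Clone 35 and 5312, 5692, 5127 and 3539 in Clone 39. Number 4 was again the lowest in 6 of 6 groups, and the number 2 library of Clone 35 in dTAG-13 was the highest of all. The log2 fold change in number 4 was -0.59 for MT-RNR1 and -0.67 for MT-RNR2, adjusted p = 0.00398 and 0.000526 for the difference over all 4 numbers by edgeR.

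The smallest p-values for the number belonged to MT-ND4L (adjusted p = 1.75e-15), MT-TT (4.99e-11) and MT-ND3 (6.84e-09), all by edgeR's quasi-likelihood test. MT-ND4L and MT-ND3 encode complex I subunits. In number 4 the log2 fold change was -0.53 ± 0.04 (SE) for MT-ND4L, -0.70 ± 0.08 for MT-TT and -0.53 ± 0.05 for MT-ND3. Mean CPM of MT-ND4L went from 205 ± 23.1 in number 1 to 142 ± 20.1 in number 4 (SD, n = 6), and number 4 was the lowest in 6 of 6 groups. MT-TT, which shares no 30-base window with the nucleus, went from 36.0 ± 3.51 to 22.3 ± 3.62 CPM.

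MT-CYB, the last mRNA of the heavy-strand transcript, had CPM values in DMSO of 681, 601, 535 and 541 in Clone 28, 744, 707, 591 and 513 in Clone 35 and 757, 741, 637 and 565 in Clone 39. In dTAG-13 they were 566, 595, 552 and 432 in Clone 28, 707, 889.6, 684 and 539 in Clone 35 and 801, 751, 795 and 537 in Clone 39. All number 4 libraries were below all number 1 libraries, and the log2 fold change was -0.44 ± 0.07 (SE). MT-ND6, the only mRNA of the light-strand transcript, had CPM values in DMSO of 474, 427, 440.4 and 362 in Clone 28, 500.2, 477, 394 and 356 in Clone 35 and 558, 483, 511 and 394 in Clone 39. In dTAG-13 they were 416, 412, 442 and 319 in Clone 28, 429.8, 504, 451 and 349.8 in Clone 35 and 421, 519.6, 533 and 428 in Clone 39. Number 4 was below number 1 in 5 of 6 groups, the exception being Clone 39 in dTAG-13, and the log2 fold change was -0.35 ± 0.07 (SE), adjusted p = 0.00179 by edgeR.

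The makeup of the mitochondrial counts varied with the number too. The block from MT-TF to MT-TL1 held 61.3%, 60.1%, 55.7% and 55.6% of them on average in numbers 1 to 4, and rRNA density was 6.56, 6.33, 5.36 and 5.5 times that of the heavy-strand mRNAs (n = 6 each). These ratios within a library do not depend on its depth scaling, and they carry no test.

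**Figure D3:**
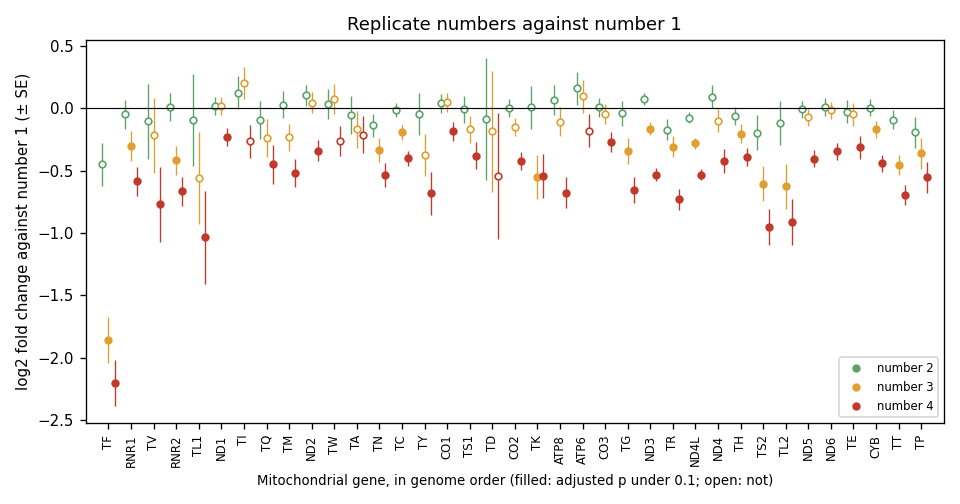
The log2 fold change of each mitochondrial gene in numbers 2, 3 and 4 against number 1 (± SE, 24 libraries), in genome order, with filled points for an adjusted p under 0.1. Number 4 lies below 0 for all 37 genes, and MT-TF reaches -2.20.

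Other transcripts were compared between numbers 4 and 1 as well, where 16.3% of all genes rose and 15.6% fell. Of 29 nuclear copies tested, 20 fell in number 4 and none rose, with a median of -0.60. Reads from shared stretches cannot be assigned with certainty, so these copies are no independent comparison with the mitochondrial genes. Of 11 RNA polymerase III transcripts, which are short and made in the nucleus, 8 fell and none rose (median -0.89). Of 8 luminal markers 6 fell (median -0.24). Of 81 nuclear genes for respiratory chain subunits 15 rose and 5 fell (median 0.04), and of 43 nuclear genes for mitochondrial transcription, RNA processing and its coactivators 4 rose and 11 fell (median -0.05). In both directions together 20 of 81 and 15 of 43 were called, against 31.9% of all genes. Rises outnumbered falls in the list of 81 and falls outnumbered rises in the list of 43. The lists were not tested as sets, so the counts are given without a reading. Library totals averaged 4563788.5 counts in number 1 and 5761523 in number 4. The part of these shifts, of depth or of the collection time in the mitochondrial difference was not tested. In the libraries of one treatment alone, 21 of 36 mitochondrial genes tested differed between numbers in DMSO, against 30.3% of all genes, and 23 of 36 in dTAG-13, against 20.1%.

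Few mitochondrial genes differed between the 3 clones in DMSO in the model of the 6 groups alone. The share averaged 1.56% ± 0.288 in Clone 28, 1.65% ± 0.391 in Clone 35 and 1.82% ± 0.173 in Clone 39 (SD, n = 4), and the ranges overlapped. Against Clone 28, 3 of 37 genes rose in Clone 39 and none fell (8.11%), where 26.7% of all genes were called and 12.4% rose, so the count is below the background and is no result about these genes as a set. No gene passed between Clones 35 and 28 (5.25% of all genes, 2.24% higher and 3.01% lower) or between Clones 39 and 35 (22.6% of all genes, 9.64% higher) by edgeR, with 1 and 0 genes at an unadjusted p under 0.05, and DESeq2 called 1 and 0. The median log2 fold change of the 37 genes was 0.16 in Clone 39 and 0.08 in Clone 35 against Clone 28, where the medians of all genes were -0.0015 and 0.0094. With replicate number added as a block, 10 genes rose in Clone 39 and 3 in Clone 35 against Clone 28. Against Clone 35, 2 rose in Clone 39, and none fell in any of these contrasts. In the same order, 35.2%, 11.9% and 30.5% of all genes were called in both directions together, shares that were not split by direction. With both treatments in the model, 16 rose and none fell in Clone 39 against Clone 28, where 40.7% of all genes were called in both directions.

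The genes that rose in Clone 39 against Clone 28 were MT-ND1, MT-CO1 and MT-TH. MT-ND1 in DMSO had CPM values of 429, 439, 499 and 512 in Clone 28, 631, 632, 598 and 493 in Clone 35 and 719, 667, 656 and 564 in Clone 39. In dTAG-13 they were 481, 508, 509 and 413 in Clone 28, 686, 759, 695 and 529 in Clone 35 and 777, 762, 799 and 612 in Clone 39. The DMSO libraries of Clones 28 and 39 did not overlap, and the log2 fold change was 0.47 ± 0.11 (SE), adjusted p = 0.00418 by edgeR. Against Clone 28, MT-ND1 was also 0.32 ± 0.11 higher in Clone 35 on the log2 scale, adjusted p = 0.147, and 0.0389 with the block.

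MT-CO1, the catalytic subunit of complex IV, had CPM values in DMSO of 478, 419, 461 and 494 in Clone 28, 535, 547, 528 and 439.9 in Clone 35 and 617, 565, 615 and 539.8 in Clone 39. In dTAG-13 they were 425, 452, 444 and 369 in Clone 28, 561, 702, 579 and 456 in Clone 35 and 629, 659.6, 753 and 546 in Clone 39. The DMSO libraries of Clones 28 and 39 did not overlap, and the log2 fold change was 0.34 ± 0.11 (SE), adjusted p = 0.0336 by edgeR. MT-CO1 shares 71.1% of its windows with the nucleus. MT-TH, the tRNA for histidine, had 47.7, 35.2, 35.1 and 37.1 CPM in Clone 28 and 57.7, 48.4, 46.3 and 46.5 in Clone 39, so that the ranges overlapped, with a log2 fold change of 0.37 ± 0.15 (SE) and adjusted p = 0.0853 by edgeR. Without the number 2 library of Clone 28 in DMSO, or without number 1 of Clone 39 in DMSO, 1 gene was called in place of 3. Without number 4 of Clone 39 in DMSO 5 were. With all libraries 26.7% of all genes were called.

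**Figure D4:**
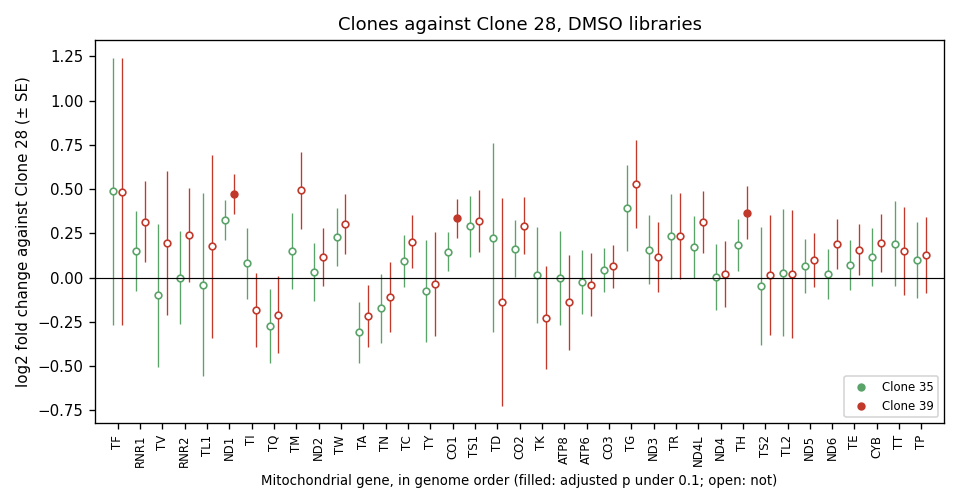
The log2 fold change of each mitochondrial gene in Clones 35 and 39 against Clone 28 in DMSO (± SE), in genome order, with filled points for an adjusted p under 0.1. Filled points are MT-ND1, MT-CO1 and MT-TH in Clone 39.

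Between Clones 39 and 28, 5 of 29 nuclear copies also rose and none fell, and 3 of the 4 tested markers of other cell types were called (1 higher, 2 lower). The part of either in the mitochondrial difference was not tested. Of the 43 listed nuclear genes for mitochondrial gene expression, 8 rose and 5 fell in Clone 39 against Clone 28, where 26.7% of all genes were called, 5 rose and 3 fell against Clone 35 (22.6% of all genes), and 2 rose in Clone 35 against Clone 28 (5.25%). These counts lie near the background and show nothing particular to the list. PPARGC1A, which encodes the coactivator PGC-1alpha of mitochondrial biogenesis, averaged 10.4 ± 1.15 CPM in Clone 39 in DMSO, against 1.43 ± 0.594 in Clone 28 and 1.48 ± 0.736 in Clone 35 (SD, n = 4). The ranges did not overlap, and the log2 fold change against Clone 28 was 2.86 ± 0.29 (SE), adjusted p = 2.46e-09 by edgeR. ELAC2, the nuclease that trims the 3′ ends of tRNA precursors, averaged 27.5 ± 1.86 CPM in Clone 39 and 52.4 ± 5.52 in Clone 28, with a log2 fold change of -0.92 ± 0.09 (SE) and adjusted p = 2.5e-09. PPARGC1B, a related coactivator, was 0.79 ± 0.11 higher in Clone 39 and 0.34 ± 0.11 higher in Clone 35 than in Clone 28 on the log2 scale, and ESRRA, the nuclear receptor that these coactivators bind, was 0.43 ± 0.08 higher in Clone 35. MTERF4, which acts in mitochondrial ribosome assembly, was 0.39 ± 0.07 higher in Clone 39 than in Clone 35.

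Degradation of TRPS1 with dTAG-13 for 90 minutes in these clones was part of a larger study, and no mitochondrial gene passed for it. Over the 3 clones 0 of 37 were called by edgeR with none at an unadjusted p under 0.05, against 0.551% of all genes (0.358% higher and 0.193% lower), and DESeq2 called 0 with 1 at an unadjusted p under 0.05. With the replicate block 0 were called and 3 had an unadjusted p under 0.05, where 2.33% of all genes were called. The log2 fold changes ran from -0.15 to 0.13 with a median of 0.02, against -0.0018 for all genes. MT-ND1 had the smallest p, with 0.13 ± 0.06 (SE) and adjusted p = 0.824, and its dTAG-13 library exceeded the DMSO library in 11 of 12 pairs of clone and number. MT-ND1 was picked by that p, and the other mitochondrial genes ran from 3 of 12 pairs (MT-TM) to 10 of 12 (MT-TI, MT-CO3 and MT-TR). In 6 of 12 pairs the dTAG-13 library had the larger share of counts, with a mean log2 ratio of -0.0049 ± 0.248 (SD, n = 12).

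Within single clones no gene passed either. In Clone 28, where 0.0537% of all genes were called (0.0448% higher and 0.00896% lower), the 37 log2 fold changes had a median of -0.13 and 31 were negative. In Clone 35 the median was 0.14 and 35 were positive, and in Clone 39 it was 0.11 and 32 were positive, where 0% of all genes were called in either clone. By edgeR 1, 0 and 0 genes had an unadjusted p under 0.05 in Clones 28, 35 and 39. With the replicate block 7, 3 and 5 did, and 0 of 37 were called in each clone as well, where 1.18%, 0.0941% and 0.0717% of all genes were. The share was lower with dTAG-13 in 4 of 4 pairs of Clone 28 (mean log2 ratio -0.20 ± 0.161) and was higher in 3 of 4 pairs of Clone 35 (0.10 ± 0.294) and 3 of 4 pairs of Clone 39 (0.09 ± 0.186, SD, n = 4 pairs). The difference of the response between clones was tested for each gene, and 0 of 37 passed by edgeR and by DESeq2, as did 0% of all genes. By edgeR 1 gene, MT-TA, had an unadjusted p under 0.05, and 5 genes did with the block. Of the nuclear genes for mitochondrial gene expression and for the respiratory chain, 0 of 43 and 0 of 81 were called with dTAG-13.

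**Figure D5:**
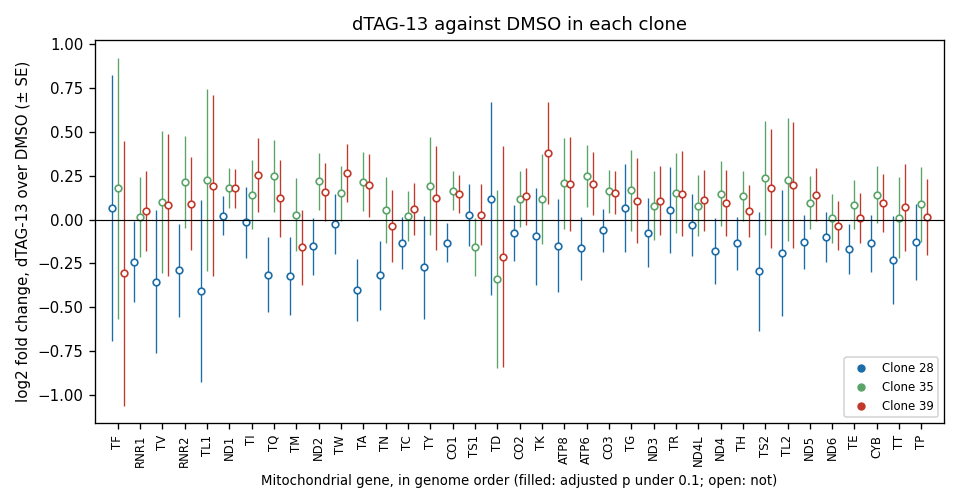
The log2 fold change of each mitochondrial gene in dTAG-13 against DMSO in Clones 28, 35 and 39 (± SE), in genome order. All points are open, since none passed an adjusted p under 0.1, and most values of Clone 28 lie below 0 while most of Clones 35 and 39 lie above.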

How the data were processed

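PRO-seq counts of 24 libraries were analysed, grouped by clone and treatment from the sample labels. Per the labels and the study's methods, the authors trimmed adapters with cutadapt 1.8.1, removed duplicates by unique molecular identifiers, removed reads on ribosomal DNA, aligned to hg38 with Bowtie2 2.4.4, sorted with SAMtools 1.9 and counted with bedtools. The annotation, strand setting and treatment of reads with several matches are not given in the sources used here, nor is whether mitochondrial rRNA was in the ribosomal filter. The deposited values are raw counts per gene. Identifiers were named from GENCODE release 44, in which 60463 of 60605 matched.

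Counts were tested in edgeR 4.0.16 (R 4.3.3) with filterByExpr (minimum count 10, 22326 genes, all 37 mitochondrial genes kept), TMM scaling, robust quasi-likelihood fits and Benjamini-Hochberg adjustment over all genes tested, at 0.1. CPM are on TMM library sizes. Models held clone and treatment, the 6 groups, or the 6 groups plus the replicate number. The fits were tested on simulated data in which libraries varied independently of each other. Same-numbered libraries deviated together in the real data, so the simulation does not cover that feature. SEs are the size of the log2 fold change divided by the square root of the F statistic. The pairing of replicate numbers rests on the stated harvest, in which each replicate had its own time and both treatments were harvested at once. Same-numbered libraries deviated together in both treatments of a clone (mean correlation 0.185, lowest 0.0926, 11 of 12 over 0.1) and across clones in DMSO (mean 0.231, 12 of 12 over 0.1). No 2 replicates agreed within sampling noise (chi-square per degree of freedom at least 1.65). Shares of counts carry no test.

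Values are given for the 2 rRNAs, MT-ND1, MT-CO1, MT-CYB and MT-ND6, and in each comparison with calls for the 3 genes with the smallest p. The genes and lists were chosen with earlier results of these data known. Alternatives were RLE factors, library totals only, mitochondrial genes left out of scaling, other count filters, DESeq2 1.42.0, a threshold of 0.05, the replicate block, both treatments together, and leaving out each clone or library. The contrasts of single numbers were added after seeing the data.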

Additional observations from a re-analysis of the deposited data

Results flagged for a closer look

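Of 78 groups of 4 libraries examined, 1 held a value far from the others, where chance flags about 1 in 20. In Clone 28 in DMSO, the light-strand genes made up 6.99% of the mitochondrial counts in number 3, against 5.71%, 5.73% and 5.91% in numbers 1, 2 and 4.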

How the results depend on the processing

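No mitochondrial gene was called for dTAG-13, in a single clone or for the difference between clones under any alternative run, the replicate block and each left-out library included. With all libraries 0.551% of all genes were called over the 3 clones, and 2.33% with the block. In Clones 28, 35 and 39 it was 0.0537%, 0% and 0%, and 0% for the difference between clones. At such shares, 0 of 37 shows nothing particular to these genes. The count for the replicate number ran from 25 to 32 without single libraries, lowest without number 4 of Clone 35 in dTAG-13. With all libraries it was 30, where 37.2% of all genes were called. Number 4 against number 1 gave 27 to 34 calls and number 3 gave 12 to 18, where 31.9% and 29.9% of all genes were called with all libraries. Number 3 gave 10 without Clone 28 (18.5% of all genes) and 4 in dTAG-13 libraries only (13.4%). Number 2 gave 0 to 5 (5 without number 2 of Clone 35 in dTAG-13), where 7.09% of all genes were called with all libraries. It gave 3 without Clone 35 (3.81%) and 4 in DMSO libraries only (3.58%). For Clone 39 against Clone 28 the count was 10 with the replicate block (35.2% of all genes called) and 16 with both treatments (40.7%). All of these mitochondrial genes rose, while the shares cover both directions. Without single libraries it was 1 to 5 (26.7% of all genes with all libraries). For Clone 35 against Clone 28 it was 1 with library totals only (4.99%), with no filter (2.07%) and by DESeq2 (5.07%). It was 3 with the block (11.9%), 5 with both treatments (13.9%) and 0 to 1 without single libraries (5.25% with all libraries). For Clone 39 against Clone 35 it was 1 with no filter (8.56%), 2 with the block (30.5%) and 0 without single libraries (22.6% with all libraries). The block changed no other count of calls. MT-CO1 in number 4 lost its call under 26 of the alternatives, with log2 fold changes that stayed negative, and kept it under 10. The cause was not tested. The shares moved by less than the spread between libraries under every denominator and set of genes tried. MT-TD, at 0.257 to 3.81 CPM, had too few counts for small differences to be detectable at this depth.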

Other observations

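Nuclear genes for respiratory chain subunits, which are made in the cytosol and imported, were compared between the clones in DMSO as well. Of 81 tested, 12 rose and 7 fell in Clone 39 against Clone 28 (26.7% of all genes called), 3 rose and 4 fell against Clone 35 (22.6%), and 3 fell in Clone 35 against Clone 28 (5.25%), by edgeR at an adjusted p under 0.1. The median log2 fold changes were 0.07, 0.06 and 0.03. Nothing particular to these genes can be read from the counts.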
